A study of Mus musculus with 24 samples.

Results

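The values described here are differences between 2 ethanol responses in cultured mouse oligodendrocytes, the glial cells that wrap axons in myelin. Each response is the log2 fold change of a gene between wells with ethanol and control wells of the same experiment, and the difference is the response at 30 mM minus the response at 10 mM. All 24 wells of the series entered this contrast, 6 in each of 4 groups, and it was computed for all 14655 genes that passed a filter on low counts. Apart from that filter, no measured value chose which genes entered the contrast.

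The cells of every group came from the cortex of C57BL/6J pups on postnatal days 5 to 7 and were enriched with magnetic beads carrying an antibody against O4, a surface antigen of immature oligodendrocytes. All cultures were differentiated for 3 days, chiefly with the thyroid hormone T3, and then spent 3 further days with ethanol or without it. Experiment 1, labelled batch 1, had 6 wells at 30 mM ethanol and 6 control wells at 0 mM. Experiment 2, labelled batch 2, had 6 wells at 10 mM ethanol and 6 control wells at 0 mM. Each dose was used in 1 experiment, so dose and experiment cannot be told apart in any value below. Control and ethanol plates stood in separate incubators in both experiments, and the effect of the incubator cannot be told apart from that of ethanol. The labels number the wells as biological replicates but do not say whether they came from separate litters or cultures, and p-values measure only the spread between these wells.

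Ethanol enters cells freely and is oxidised to acetaldehyde and acetate. As oligodendrocyte precursors mature they leave the cell cycle, rearrange their actin cytoskeleton and switch on myelin genes. Cultures enriched for O4 also hold other cells, among them astrocytes, microglia and cells of vessels and meninges, and bulk RNA adds up the transcripts of all of them.

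RNA was measured by 3′ tag sequencing, a method whose reads cluster close to transcript 3′ ends. Total counts ranged from 1184609 to 1817028 per well, and 3 counts, taken as the floor, came to between 1.71 and 2.56 CPM, that is, counts scaled to the size of the library. Of 23 myelin genes, the markers of the labelled cell type, 21 passed the filter, and at most 1 lay under the floor in any group. Their summed level had medians of 7370 CPM in the controls of experiment 1 and 8890 CPM at 30 mM. In experiment 2 the medians were 7780 CPM in the controls and 8760 CPM at 10 mM. Summed astrocyte genes had medians of 9860, 11400, 8700 and 8880 CPM in the same order of groups. Of the markers of other cells, 17 of 18 astrocyte genes and 15 of 18 microglia genes passed the filter, against 6 of 12 pericyte and vascular smooth muscle genes. The summed level of the microglia genes had a median of 434 CPM in the controls of experiment 1 and 4070 CPM in those of experiment 2, and of the 15 tested none was called for a difference of the responses by the test below, or 3 without the wells described next. Wells stood apart in experiment 1 by the share of counts that fell in genes under the filter. That share ran from 1.71% to 2.47% in the controls and from 1.85% to 2.64% at 30 mM, with control replicate 6 highest among the controls and 30 mM replicates 1 and 2 lowest at their dose. In experiment 2 it ran from 2.45% to 2.81% in the controls and from 2.14% to 2.66% at 10 mM. Total count set the same wells of experiment 1 apart. It was 1688867 and 1610397 in 30 mM replicates 1 and 2, against 1218861 to 1358062 in the other 30 mM wells. Control replicate 6 had 1227777, and the other controls had 1493383 to 1817028. Counts of called members that moved by more than 1.5 times without those 3 wells are given both ways.

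Of the 14655 genes tested, 481 (3.28%) had responses that differed between the doses at an adjusted p under 0.05 by edgeR's quasi-likelihood test with Benjamini-Hochberg adjustment, and these are the genes called below. The response at 30 mM was the more negative one for 352 of them (2.4% of genes tested) and the more positive one for 129 (0.88%). The median difference was -0.52 on the log2 scale over the 352 and 0.65 over the 129, against 0.02 over all genes tested. A difference of at least 2-fold was reached by 70 of the called genes. In the same fit, 1599 genes (10.9%) changed at 30 mM and 21 (0.143%) changed at 10 mM. The 6 wells at 30 mM did not overlap their controls for 561 genes (3.83%), lying below them for 410 (2.8%) and above for 151 (1.03%). At 10 mM this held for 113 genes (0.771%), with 42 below (0.287%) and 71 above (0.484%).

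For most called genes the 30 mM response was the larger of the 2. That response is 1 of the 2 terms of the difference by which the genes were called, so this count describes them only. The responses had opposite signs for 364 of the 481, against 7390 of the 14655 genes tested. Opposite signs enlarge the difference by which genes were called, so this count too describes the called genes only. The change was larger in size at 30 mM for 429 of the 481 (89.2%), against 64.4% of all genes tested, and 412 of them passed the test at 30 mM. For 65 called genes neither response passed by itself. Both responses passed for 5 genes, and of these Ccn1 alone had opposite signs. The 9 called genes that changed at 10 mM were Hspa5, Ptx3, Ccn1, Cxcl5, Serpinh1, Akap12, Ier2, C3 and Egr1. A mean log2 CPM under 4 was found for 12 of the 352 genes on the negative side (3.41%), for 37 of the 129 on the positive side (28.7%) and for 33.6% of all genes tested.

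**Figure D1:**
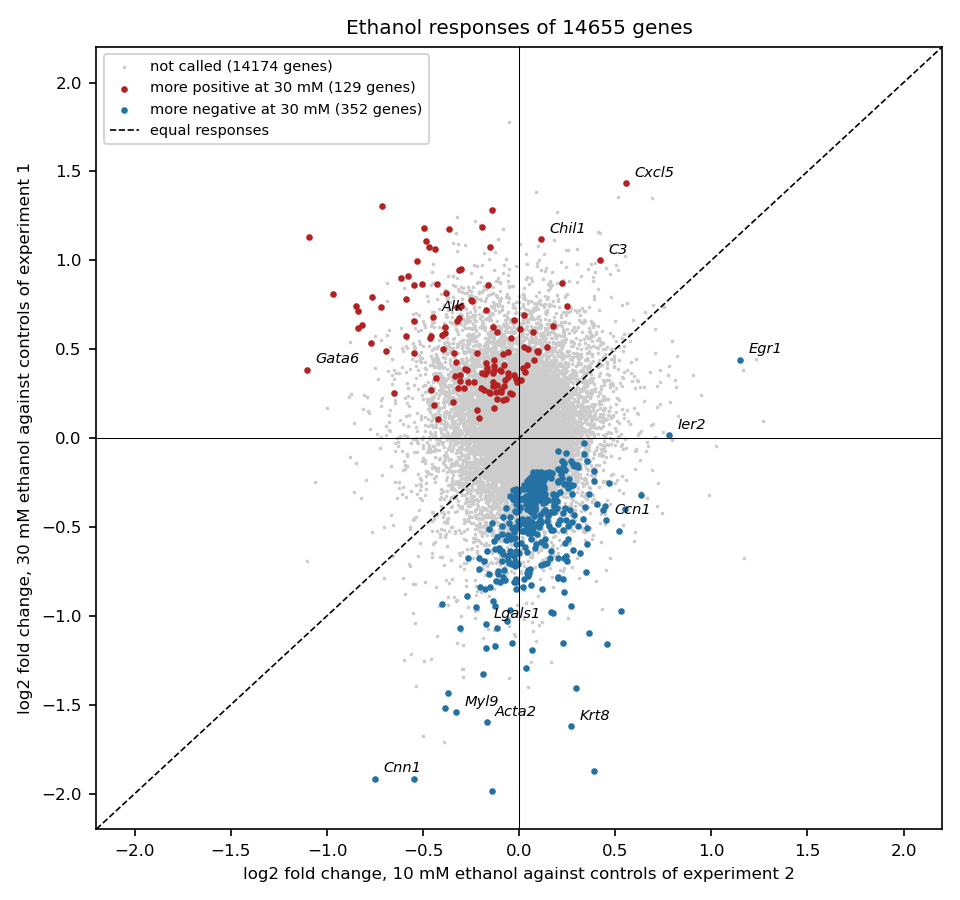
Each point is 1 of the 14655 genes, with its log2 fold change at 10 mM against the controls of experiment 2 on the horizontal axis and at 30 mM against the controls of experiment 1 on the vertical axis. Coloured points are the 129 genes called more positive and the 352 called more negative at 30 mM, the dashed line marks equal responses, and 2 genes outside the axes, neither of them called, are not drawn. The coloured points spread further along the vertical axis than along the horizontal one.

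These counts moved with the wells that stood apart. Without 30 mM replicate 1, 759 genes were called, and without 30 mM replicate 2, 723. With both of these wells and control replicate 6 of experiment 1 left out, a choice made after the data were seen, 2019 genes were called and 460 of the 481 were among them. In the 9 wells of experiment 1 that remain, the share of counts under the filter separates control from 30 mM wells completely. Total count does so too, with 1493383 to 1817028 in the controls and 1218861 to 1358062 at 30 mM. With that share as a covariate in the fit of all wells, 229 genes were called, 161 of them among the 481, and 117 of the 229 were positive. The parts of this share and of total count in the result were not tested.

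The 34 gene lists behind the following paragraphs hold 151 of the 481 called genes. Counts of called members are to be read against the 3.28% called among all genes tested, and list medians against the median of 0.02. Counts of members by sign are to be read against 6975 negative and 7680 positive differences among the 14655 genes. Levels are CPM, given as the lowest, the median and the highest of the 6 wells of a group. A response or difference is on the log2 scale, with its standard error (SE) where given, and adjusted p-values are from edgeR's quasi-likelihood test over all genes tested.

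Genes of the contractile apparatus were among those with large negative differences. Of 14 smooth muscle contractile genes tested, 6 were called, all more negative at 30 mM: Acta2, Cnn1, Cnn2, Myl9, Tpm1 and Tpm2. The list median was -0.55, made up of a median response of -0.64 at 30 mM and -0.19 at 10 mM. In bulk RNA, fewer cells of a type and less RNA per cell cannot be told apart, here and in all results below. The pericyte and vascular smooth muscle markers, which share cells with these genes in vessels, held no called member among 6 tested by edgeR, DESeq2 or limma voom, and 0 of the 6 reached an unadjusted p under 0.05. Their summed median was 109 CPM in the controls of experiment 1 and 121 CPM at 30 mM. The 6 tested, Pdgfrb, Rgs5, Cspg4, Kcnj8, Abcc9 and Notch3, had group means of at least 13.8, 16.9, 29.0, 8.3, 5.26 and 20.6 CPM. All of these lie above the floor. Of the members not tested, Vtn and Cox4i2 reached group means of 5.34 and 3.1 CPM. Myh11, Des, Ndufa4l2 and Higd1b reached at most 2.32, 1.61, 1.55 and 0.126 CPM, at or below the floor of a single well.

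Acta2 encodes smooth muscle actin, which also fills the stress fibres of activated fibroblast-like cells. In experiment 1, Acta2 lay at 299, 392 and 430 CPM in the control wells and at 77.8, 125 and 177 CPM at 30 mM. In experiment 2, Acta2 lay at 19.2, 24.6 and 31.2 CPM in the control wells and at 14.3, 19.4 and 38.6 CPM at 10 mM. All 30 mM wells were below all of their controls, whereas the 10 mM wells overlapped theirs, and even the lowest 30 mM well was above every well of experiment 2. The response of Acta2 was -1.60 at 30 mM and -0.17 at 10 mM, and the difference was -1.43 (SE 0.24, adjusted p = 5.02e-05 by edgeR).

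Myl9, the regulatory light chain of smooth muscle myosin, began from control levels that were closer between the experiments. In experiment 1, Myl9 lay at 278, 347 and 378 CPM in the control wells and at 95.4, 115 and 145 CPM at 30 mM. In experiment 2, Myl9 lay at 67.3, 78.5 and 92.2 CPM in the control wells and at 49.6, 58.2 and 87.9 CPM at 10 mM. The groups were again separate at 30 mM and overlapping at 10 mM. The difference was -1.21 (SE 0.14, adjusted p = 8.13e-09 by edgeR), from responses of -1.54 and -0.33. Every ethanol well of Cnn1, a calponin that binds actin and tropomyosin, lay below its controls in both experiments, and the difference was -1.16 (SE 0.26, adjusted p = 0.00333). Only its response at 30 mM passed the test, at -1.92 against -0.75 at 10 mM. For Cnn2, a more widely expressed calponin, the difference was -1.01 (SE 0.12, adjusted p = 1.5e-08).

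Promoters of contractile genes are known for the CArG box, the site bound by serum response factor, so the windows of the called members that hold one are of interest. The box was searched as CC, 6 letters of A or T, and GG on both strands, in windows from 250 bases before to 50 bases after each start site in a RefSeq table of build GRCm38.p6. It was found for 1.81% of the 27025 genes with a window and for 3 of the 20 called contractile and actin-binding genes with a window, namely Cnn2, Myl6 and Myl9. The windows of the 2 contractile genes among them follow, with the box in capitals, for Myl9 at chr2:156775214-156775513 and for Cnn2 at chr10:79988350-79988649, both on the plus strand.
Myl9: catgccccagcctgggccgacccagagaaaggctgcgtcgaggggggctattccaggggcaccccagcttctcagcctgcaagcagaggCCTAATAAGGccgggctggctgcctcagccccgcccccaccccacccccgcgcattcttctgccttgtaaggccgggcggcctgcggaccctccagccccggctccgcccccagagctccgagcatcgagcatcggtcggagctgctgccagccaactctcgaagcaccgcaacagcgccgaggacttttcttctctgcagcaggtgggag
Cnn2: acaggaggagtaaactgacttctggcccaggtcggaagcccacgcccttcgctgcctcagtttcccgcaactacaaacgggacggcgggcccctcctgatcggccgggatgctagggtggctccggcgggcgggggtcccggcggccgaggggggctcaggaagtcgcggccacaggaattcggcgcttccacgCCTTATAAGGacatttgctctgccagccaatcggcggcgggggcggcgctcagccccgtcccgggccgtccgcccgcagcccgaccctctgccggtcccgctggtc
The box lies between 161 and 152 bases before the start site in Myl9 and between 56 and 47 bases before it in Cnn2. A match describes these letters and is not evidence of binding.

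Of 24 non-muscle actin and actin-binding genes tested, 15 were called, none of them positive, with a list median of -0.41. Among the called members were Actn1, Tpm4, Myh10, Pfn1, Zyx, Tln1, Tagln2 and Cald1. Tagln2, a transgelin that bundles actin, had the most negative difference of the list, -0.83 (SE 0.10, adjusted p = 1.5e-08), and its 30 mM wells, from 122 to 156 CPM, all lay below their controls, from 218 to 266 CPM. Its 10 mM wells overlapped their controls. Cald1, encoding caldesmon, and Actn1, encoding a filament crosslinker, differed by -0.49 and -0.48 with adjusted p-values of 0.000769 and 0.00158. Fitted with the share of counts under the filter as a covariate, the actin-binding list had 6 called members and the contractile list 6, and without the 3 wells that stood apart they had 20 and 8.

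Large negative differences were also found for genes of other kinds. Itga3, a laminin-binding integrin subunit, had responses of -1.10 and 0.36 and a difference of -1.46 (SE 0.31, adjusted p = 0.00208). The 30 mM wells of Itga3 overlapped their controls, of which replicate 6 was highest at 127 CPM and replicate 1 next at 76 CPM. Itga3 kept its call under all 37 alternatives, with differences from -2.035 to -1.02. Tgfb1i1, a focal adhesion protein also called Hic-5, differed by -1.38 (SE 0.27, adjusted p = 0.000751), and its 30 mM wells did not overlap their controls. Krt8, a keratin of simple epithelia, had the most negative difference of the genes named here, -1.89, with the widest error (SE 0.56, adjusted p = 0.0395). Its level in control replicate 6 of experiment 1 was 191 CPM, against 62 CPM in the next control, and its 30 mM wells overlapped the controls. Krt8 lost its call under 14 of 36 alternatives, among them upper quartile normalization (adjusted p = 0.0778), total count scaling (0.0672), limma voom (0.142) and leaving out any of 10 single wells (0.0512 to 0.0844), and its difference ranged from -2.81 to -1.21. Tmem37, a calcium channel gamma-like subunit, and Cdkn1c, an inhibitor of cyclin-dependent kinases, differed by -1.26 and -1.22 with adjusted p-values of 0.00158 and 0.00464. Of 19 tubulin and microtubule genes 4 were called, all negative, with a median of -0.10. That median was 0.039 with the share of counts under the filter as a covariate, and the number called was 2 with that covariate, with the total count as a covariate or under upper quartile normalization, and 8 without the 3 wells that stood apart. Tuba1c, an alpha tubulin, differed by -0.65 (SE 0.12, adjusted p = 0.000198), with 30 mM wells from 100 to 129 CPM below controls from 146 to 211 CPM, and Tubb6, a beta tubulin, differed by -0.51 (adjusted p = 0.00123). Of 10 intermediate filament genes, Nes, Krt8 and Lmnb1 were called negative and Gfap positive. Nes, encoding the progenitor filament nestin, differed by -0.72 (adjusted p = 1.52e-06) and Lmnb1, a nuclear lamin, by -0.83 (adjusted p = 0.000157).

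**Figure D2:**
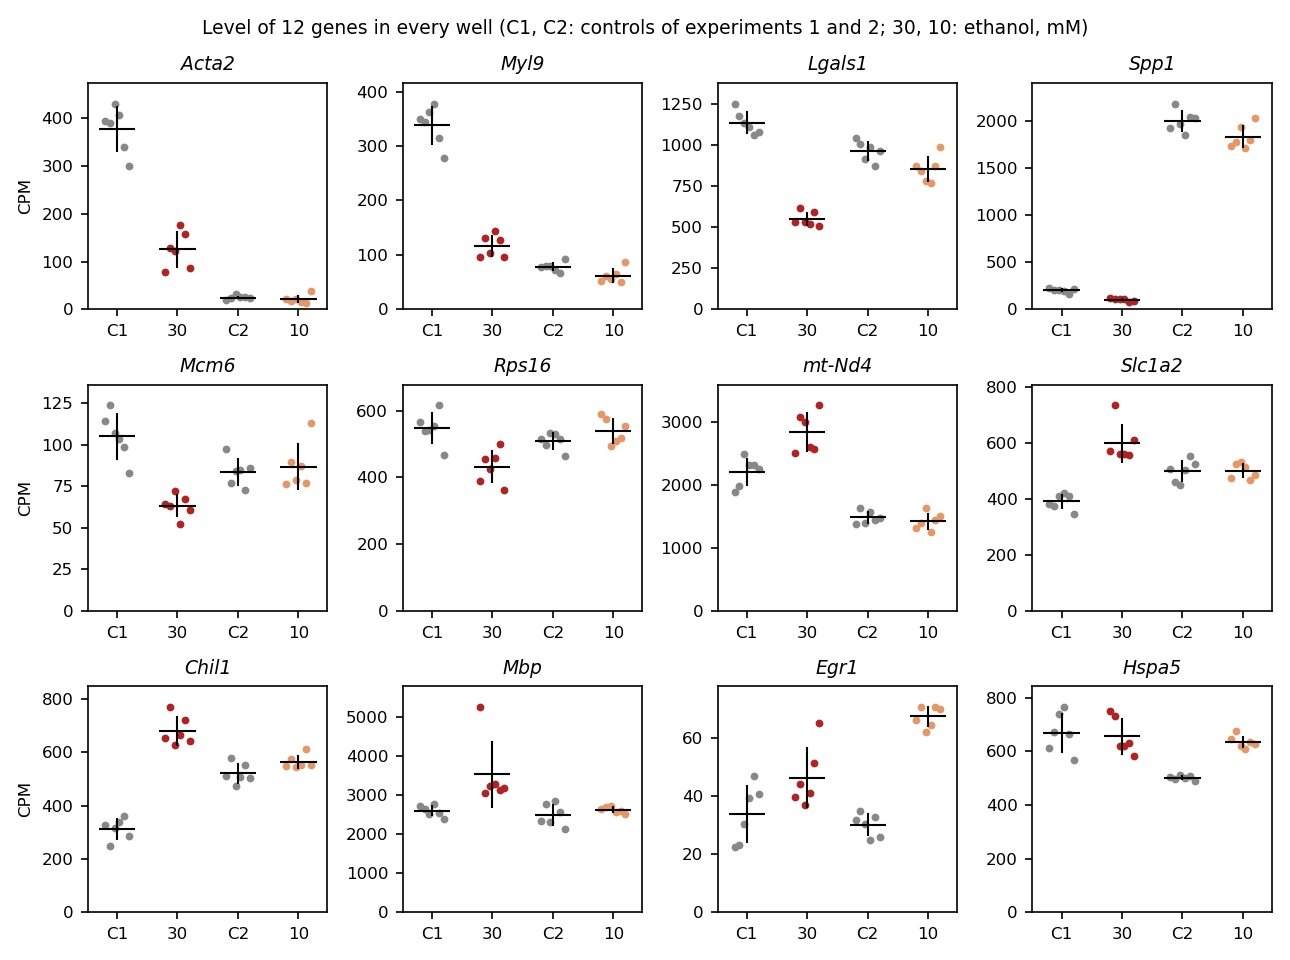
Each panel gives the level of 1 gene in CPM on an axis from 0, with 1 point per well; horizontal bars are means and vertical bars are standard deviations over 6 wells. C1 and C2 are the controls of experiments 1 and 2, and 30 and 10 are the ethanol doses in mM. Acta2, Myl9, Lgals1 and Spp1 drop from C1 to 30 without overlap, while the points for C2 and 10 overlap; Egr1 and Hspa5 show the opposite arrangement.

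Galectins, lectins that bind galactose-containing sugars on matrix and cell surfaces, had the lowest list median, -0.87, with 3 of 5 tested members called. In experiment 1, Lgals1 lay at 1060, 1120 and 1250 CPM in the control wells and at 508, 532 and 615 CPM at 30 mM. In experiment 2, Lgals1 lay at 869, 974 and 1040 CPM in the control wells and at 769, 855 and 986 CPM at 10 mM. The control levels of Lgals1 were similar in the experiments, and only the 30 mM wells were set apart from their controls. The difference was -0.87 (SE 0.09, adjusted p = 1.01e-11 by edgeR), from responses of -1.05 and -0.17. Lgals3 and Lgals9 differed by -1.05 and -1.14 (adjusted p = 1.5e-08 and 0.0147). Lgals9 was not called by limma voom (adjusted p = 0.0601), with the share of counts under the filter as a covariate (0.0529) or without control replicate 1 of experiment 1 (-0.97, 0.0609). Lgals3 and Lgals9 are genes that microglia express, and their control medians were 107 and 9.2 CPM in experiment 1 against 334 and 37.7 CPM in experiment 2. The part of microglia in these values was not tested.

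Annexins, which bind membrane phospholipids in the presence of calcium, and their S100 partners had 7 of 16 members called, all negative: Anxa1, Anxa2, Anxa3, Anxa6, S100a6, S100a10 and S100a11. The list median was -0.265. Anxa3 differed by -0.63 (adjusted p = 0.00084) and S100a6 by -0.60 (adjusted p = 0.00158), both with separate wells at 30 mM. For Anxa2, the partner of S100a10 at the membrane, the difference of -0.55 (adjusted p = 0.00124) combined a fall at 30 mM, -0.27, with a response of 0.28 at 10 mM that did not pass the test.

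Among matricellular proteins and targets of the coactivator YAP, 4 of 16 were called, and among collagens 3 of 16, again without a positive member. In experiment 1, Spp1 lay at 167, 207 and 223 CPM in the control wells and at 79.3, 110 and 125 CPM at 30 mM. In experiment 2, Spp1 lay at 1860, 2010 and 2190 CPM in the control wells and at 1720, 1790 and 2030 CPM at 10 mM. Spp1, the secreted phosphoprotein osteopontin, thus fell without overlap at 30 mM from a control level far below that of experiment 2, where the groups overlapped. Its difference was -0.82 (SE 0.10, adjusted p = 3.96e-08). The summed microglia genes also lay lower in the controls of experiment 1, with medians of 434 CPM there and 4070 CPM in those of experiment 2. The part of microglia in the Spp1 values was not tested. Tnc, the matrix protein tenascin C, differed by -0.71 (adjusted p = 0.000883).

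Ccn1, a secreted YAP target that binds integrins, was the 1 gene that passed the test at both doses in opposite directions. In experiment 1, Ccn1 lay at 209, 292 and 338 CPM in the control wells and at 160, 208 and 230 CPM at 30 mM. In experiment 2, Ccn1 lay at 109, 122 and 125 CPM in the control wells and at 150, 157 and 189 CPM at 10 mM. The 10 mM wells all lay above their controls, and the 30 mM wells lay low but overlapped theirs. The response was -0.46 at 30 mM (adjusted p = 1.59e-05) and 0.45 at 10 mM (adjusted p = 0.0063), and the difference was -0.91 (SE 0.12, adjusted p = 1.61e-07 by edgeR).

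Col1a1 and Col1a2, the chains of type I collagen, differed by -0.79 and -0.92 with adjusted p-values of 5.95e-05 and 7.19e-08. In experiment 1, Col1a2 lay at 129, 157 and 196 CPM in the control wells and at 64.3, 78.6 and 97.3 CPM at 30 mM. In experiment 2, Col1a2 lay at 178, 211 and 235 CPM in the control wells and at 189, 200 and 216 CPM at 10 mM. The pattern was that of Lgals1, with similar control levels and separation at 30 mM alone. All 16 collagen genes tested had negative differences, with a list median of -0.36. Of the fibroblast and meningeal markers, Col1a1 was called on the negative and Gata6 on the positive side of 10 tested, and the summed median of the list was 899 CPM in the controls of experiment 1, 634 CPM at 30 mM, 860 CPM in the controls of experiment 2 and 792 CPM at 10 mM. The part of fibroblast-like cells in the collagen values was not tested. Without the 3 wells that stood apart, 9 collagens, 7 matricellular genes and 5 fibroblast and meningeal markers were called, and without 30 mM replicate 2 alone 5 collagens were.

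Cell cycle genes had more negative responses at 30 mM. Of 24 mitosis genes tested, 13 were called (list median -0.47), and of 24 DNA replication genes 5 were called (list median -0.37), none of them positive. The called mitosis genes were Cdk1, Ccna2, Top2a, Mki67, Aurka, Plk1, Birc5, Cenpa, Cenpf, Ube2c, Tpx2, Kif11 and Nusap1, and the replication genes were Mcm3, Mcm6, Mcm7, Rrm1 and Dut. In experiment 1, Mcm6 lay at 82.7, 105 and 124 CPM in the control wells and at 52.2, 63.5 and 72.2 CPM at 30 mM. In experiment 2, Mcm6 lay at 72.5, 84.3 and 97.2 CPM in the control wells and at 76.1, 82.7 and 113 CPM at 10 mM. Mcm6, a subunit of the replicative helicase, was thus separate at 30 mM and overlapping at 10 mM, with a difference of -0.79 (SE 0.14, adjusted p = 8.39e-05).

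Ccna2, the cyclin of S phase and mitotic entry, had responses of -0.68 and 0.16 and a difference of -0.84 (SE 0.15, adjusted p = 0.000213). Its 30 mM wells, from 31.6 to 66.4 CPM, all lay below their controls, the lowest of which was at 67 CPM. Nusap1, a spindle-binding protein, differed by -0.70 (adjusted p = 0.000101), and Top2a, the topoisomerase of dividing cells, by -0.47 (adjusted p = 0.00174). Mcm7, of the same helicase as Mcm6, differed by -0.50 (adjusted p = 0.00987), and by -0.36 (adjusted p = 0.165) with the share of counts under the filter as a covariate. The summed level of the mitosis genes had a median of 2080 CPM in the controls of experiment 1 and 1480 CPM at 30 mM, without overlap, and of 1890 and 1820 CPM in experiment 2, with overlap. In the fit with the share of counts under the filter as a covariate, 5 mitosis genes and 1 replication gene were called, and without the 3 wells that stood apart 14 and 8 were.

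E2F factors drive S phase genes, and the window of Mcm6 is shown because it holds more than 1 match to the E2F site, searched on both strands as TTTGGCGC, TTTCGCGC, TTTCCCGC or TTTGCCGC. The site was found for 2.6% of the 27025 genes with a window and for 4 of the 16 called replication and mitosis genes with one, Cdk1, Mcm3, Mcm6 and Mcm7. The window of Mcm6 lies at chr1:128359656-128359955 on the minus strand in GRCm38.p6, with the matches in capitals.
Mcm6: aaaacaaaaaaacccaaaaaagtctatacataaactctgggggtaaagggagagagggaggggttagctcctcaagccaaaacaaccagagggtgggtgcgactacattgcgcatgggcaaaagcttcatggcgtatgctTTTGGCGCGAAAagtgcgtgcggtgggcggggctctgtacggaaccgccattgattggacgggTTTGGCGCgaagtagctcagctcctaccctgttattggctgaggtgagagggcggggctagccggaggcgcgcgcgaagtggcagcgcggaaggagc
Of its 3 matches, a pair overlaps on opposite strands, and the last begins 47 bases before the start site.

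Genes of protein synthesis had small differences, mostly of 1 sign. Of 77 cytosolic ribosomal protein genes tested, 35 were called, all negative, and 76 had a negative difference, with a list median of -0.28. In experiment 1, Rps16 lay at 466, 548 and 617 CPM in the control wells and at 364, 440 and 499 CPM at 30 mM. In experiment 2, Rps16 lay at 464, 516 and 534 CPM in the control wells and at 493, 537 and 589 CPM at 10 mM. Rps16 overlapped between ethanol and control wells at both doses. Its difference was -0.43 (SE 0.09, adjusted p = 0.00235), and that of Rpl3 was -0.39 (SE 0.08, adjusted p = 0.00251). The summed level of the list had medians of 50700 and 43900 CPM in experiment 1, controls first, and of 48100 and 49900 CPM in experiment 2. The number called depended strongly on the wells and on the fit: 5 with the share of counts under the filter as a covariate, 19 under upper quartile normalization and 68 without the 3 wells that stood apart, with a negative median in each case. Ribosomal protein genes have many near-identical copies, and how reads shared between copies were counted is not given in the sources used here.

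The mitochondrial genome moved the other way. It encodes core subunits of the respiratory chain, and 6 of its 8 genes tested were called positive, namely mt-Nd1, mt-Nd2, mt-Nd3, mt-Nd4, mt-Nd6 and mt-Cytb. In experiment 1, mt-Nd4 lay at 1900, 2290 and 2490 CPM in the control wells and at 2520, 2810 and 3280 CPM at 30 mM. In experiment 2, mt-Nd4 lay at 1390, 1460 and 1640 CPM in the control wells and at 1260, 1420 and 1640 CPM at 10 mM. All 30 mM wells lay above their controls, and the wells of experiment 2 overlapped. The difference of mt-Nd4 was 0.42 (SE 0.09, adjusted p = 0.00281) and that of mt-Cytb, the core of complex III, was 0.40 (SE 0.09, adjusted p = 0.0043). The remaining 5 of the 13 protein-coding genes, mt-Co2, mt-Co3, mt-Atp6, mt-Atp8 and mt-Nd4l, were at or near 0 in all groups and could not be tested. Mitochondrial genes took a median of 3.31% of counts in the controls of experiment 1, 4.07% at 30 mM, 2.25% in the controls of experiment 2 and 1.99% at 10 mM. Of the 8 genes, 2 were called with the share of counts under the filter as a covariate.

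Of 50 nuclear genes of the respiratory chain, 3 (6%) were called, all negative, against 3.28% called of all genes tested. Differences were negative for 47 of the 50, and the median was -0.16. That median was -0.073 with the share of counts under the filter as a covariate and -0.088 under upper quartile normalization. Cox7b, a subunit of cytochrome oxidase, differed by -0.30 (adjusted p = 0.0237), and Ndufa3, a subunit of complex I, by -0.28 (adjusted p = 0.0478), a call that Ndufa3 lost under 18 of 37 alternatives. Under upper quartile normalization neither was called (adjusted p = 0.0732 and 0.136). No other of the 50 was called by edgeR in that fit, and 10 reached an unadjusted p under 0.05. All 30 proteasome subunit genes tested had negative differences, with a median of -0.185 and 3 members called, and Psmc3, an ATPase of the regulatory particle, differed by -0.41 (adjusted p = 0.00289). The proteasome median was -0.087 with the share of counts under the filter as a covariate. Under upper quartile normalization it was -0.112, with 1 member called. Without the 3 wells that stood apart, 26 of the respiratory chain and 16 of the proteasome genes were called, and without 30 mM replicate 1 or 2 alone 6 respiratory chain genes were. With the share of counts under the filter as a covariate, none of either list was called by edgeR, and 7 and 5 reached an unadjusted p under 0.05.

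**Figure D3:**
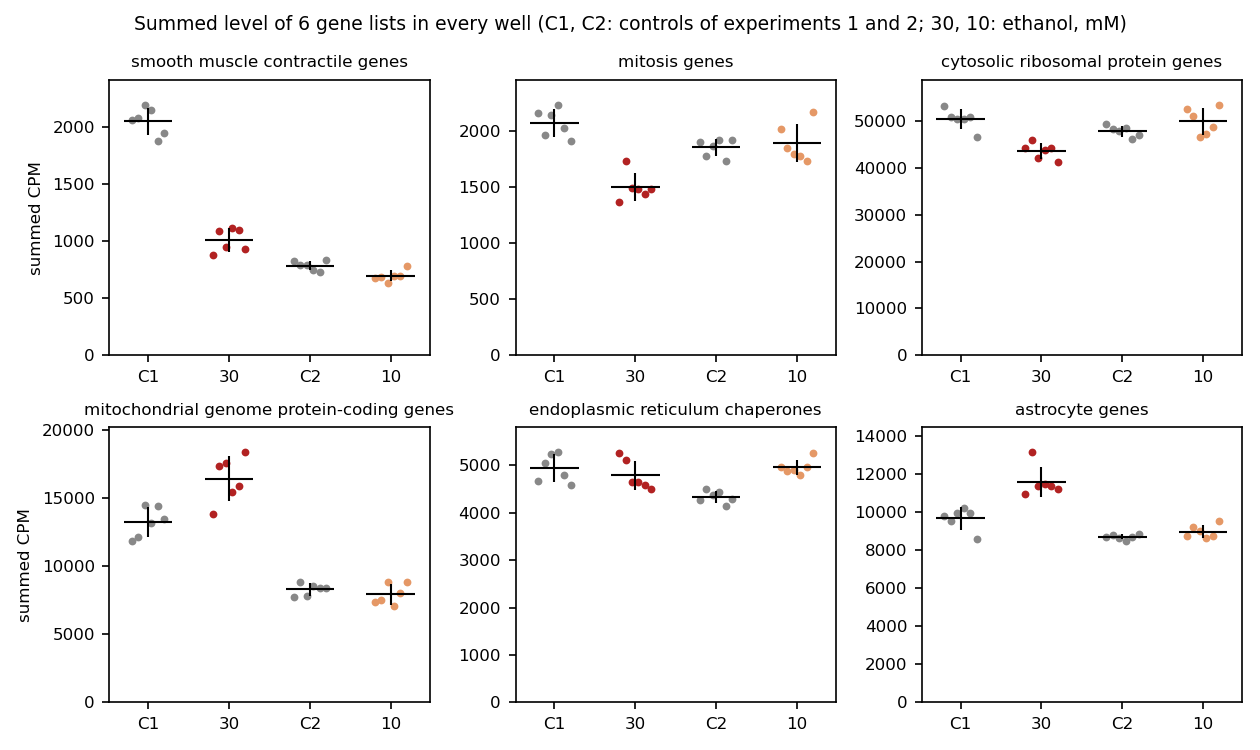
Each panel gives the summed CPM of the tested and untested members of 1 gene list on an axis from 0, with 1 point per well, means as horizontal bars and standard deviations over 6 wells as vertical bars. C1 and C2 are the controls of experiments 1 and 2, and 30 and 10 are mM ethanol. The contractile, mitosis and ribosomal sums are lower at 30 than in C1, the mitochondrial and astrocyte sums are higher, and the endoplasmic reticulum sum is higher at 10 than in C2.

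A smaller set of called genes changed at 10 mM. Egr1 and Ier2, immediate early genes that cells induce within minutes of a stimulus, were the 2 called members of 18 immediate early genes tested, both with the more positive response at the lower dose. In experiment 1, Egr1 lay at 22.5, 34.8 and 46.9 CPM in the control wells and at 36.9, 42.6 and 64.9 CPM at 30 mM. In experiment 2, Egr1 lay at 24.9, 31.1 and 34.9 CPM in the control wells and at 62.1, 68 and 70.7 CPM at 10 mM. Every 10 mM well was above its controls, while the 30 mM wells overlapped theirs. Egr1 rose by 1.15 at 10 mM and by 0.44 at 30 mM, and the difference was -0.71 (SE 0.19, adjusted p = 0.0194 by edgeR). For Ier2 the response was 0.78 at 10 mM and 0.02 at 30 mM, of which only the former passed, and the difference was -0.76 (SE 0.21, adjusted p = 0.0251). Under upper quartile normalization neither was called, with adjusted p-values of 0.0508 and 0.0624 by edgeR. Egr1 also lost its call without control replicate 5 of experiment 1 (-0.60, adjusted p = 0.0628), and Ier2 without 30 mM replicate 3 (-0.70, 0.0597) or 10 mM replicate 6 (-0.70, 0.0555).

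Chaperones of the endoplasmic reticulum fold secreted and membrane proteins. Of 19 tested, Hspa5 and Sdf2l1 changed at 10 mM and P4hb at 30 mM. The responses differed for 4 (Hspa5, Pdia6, P4hb and Manf), all negative, and the median response of the list was -0.08 at 30 mM and 0.18 at 10 mM. In experiment 1, Hspa5 lay at 566, 667 and 766 CPM in the control wells and at 582, 626 and 749 CPM at 30 mM. In experiment 2, Hspa5 lay at 490, 502 and 513 CPM in the control wells and at 607, 631 and 675 CPM at 10 mM. The 10 mM wells of Hspa5, the main chaperone of this compartment, were all above controls that varied little, and the 30 mM wells overlapped theirs. The difference was -0.37 (SE 0.09, adjusted p = 0.00871), and Hspa5 rose by 0.34 at 10 mM (adjusted p = 0.0029). Pdia6, a disulfide isomerase, and Manf, a secreted protein of the stressed endoplasmic reticulum, differed by -0.37 and -0.43 (adjusted p = 0.0125 and 0.0143), with no passing response at either dose. Serpinh1, the collagen chaperone of the same compartment, rose by 0.35 at 10 mM and differed by -0.48 (SE 0.09, adjusted p = 0.000339), with all 10 mM wells, from 286 to 324 CPM, above their controls, from 220 to 247 CPM. With the share of counts under the filter as a covariate, none of the 19 chaperones was called by edgeR (for Hspa5, -0.195 with adjusted p = 0.271) and 6 reached an unadjusted p under 0.05. Without the 3 wells that stood apart, 8 were called.

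The endoplasmic reticulum stress element, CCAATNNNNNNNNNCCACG, is the composite site known from chaperone promoters, and the windows of the called chaperones that hold it are shown for that reason; it was searched on both strands after the values were seen. It was found for 0.137% of the 27025 genes with a window and in 2 of the 3 called chaperones with one, at chr2:34771840-34772139 for Hspa5 and at chr12:17266339-17266638 for Pdia6, both on the plus strand of GRCm38.p6, with the element in capitals.
Hspa5: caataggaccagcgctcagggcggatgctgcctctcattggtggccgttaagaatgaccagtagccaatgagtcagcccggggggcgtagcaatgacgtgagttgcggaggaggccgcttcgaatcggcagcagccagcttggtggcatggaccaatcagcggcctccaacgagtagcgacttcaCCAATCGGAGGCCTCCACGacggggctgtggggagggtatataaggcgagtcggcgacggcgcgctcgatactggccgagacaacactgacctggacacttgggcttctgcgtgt
Pdia6: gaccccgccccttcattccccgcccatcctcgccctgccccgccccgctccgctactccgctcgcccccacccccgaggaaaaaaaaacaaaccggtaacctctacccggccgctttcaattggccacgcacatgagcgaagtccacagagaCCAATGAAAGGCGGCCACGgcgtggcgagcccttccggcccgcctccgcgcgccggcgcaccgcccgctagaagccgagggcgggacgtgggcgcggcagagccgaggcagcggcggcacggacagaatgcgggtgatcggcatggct
It begins 65 bases before the start site in Hspa5 and 98 bases before it in Pdia6.

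At 30 mM, 15 of 21 targets of NRF2 and 11 of 19 genes of the integrated stress response and serine synthesis changed, against 10.9% of all genes tested. Of the 21 targets of NRF2, the factor that induces antioxidant enzymes, 5 were called negative (Hmox1, Txnrd1, Srxn1, Gsta4 and Blvrb) and Fth1, a ferritin chain, was called positive, with a list median of -0.30. In experiment 1, Txnrd1 lay at 580, 619 and 667 CPM in the control wells and at 357, 408 and 434 CPM at 30 mM. In experiment 2, Txnrd1 lay at 425, 454 and 468 CPM in the control wells and at 401, 421 and 447 CPM at 10 mM. Txnrd1, which keeps thioredoxin reduced, was separate from its controls at 30 mM and overlapped them at 10 mM. Its difference was -0.54 (SE 0.08, adjusted p = 8.08e-06). Hmox1, the enzyme that opens the haem ring, lay below its controls in every ethanol well of both experiments, and its responses of -1.07 and -0.31, of which only the first passed, differed by -0.77 (SE 0.15, adjusted p = 0.000497). Blvrb, a biliverdin reductase, differed by -0.67 (adjusted p = 0.0039). Without the 3 wells that stood apart, 15 of the 21 were called, and without 30 mM replicate 1 alone 11 were.

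NRF2 binds the antioxidant response element, whose core TGACNNNGC was searched on both strands. It was found for 14% of the 27025 genes with a window and for 2 of the 4 called NRF2 targets with one, Srxn1 and Txnrd1. A gene was counted when any of its windows held the core. The 4 targets have 8 windows and the 27025 genes have 32851, so the shares do not rest on equal numbers of windows per gene. The match of Txnrd1, the member described above, lies in 1 of its 3 windows, at chr10:82858956-82859255 on the plus strand of GRCm38.p6, and the capitals mark the core as read on the opposite strand.
Txnrd1: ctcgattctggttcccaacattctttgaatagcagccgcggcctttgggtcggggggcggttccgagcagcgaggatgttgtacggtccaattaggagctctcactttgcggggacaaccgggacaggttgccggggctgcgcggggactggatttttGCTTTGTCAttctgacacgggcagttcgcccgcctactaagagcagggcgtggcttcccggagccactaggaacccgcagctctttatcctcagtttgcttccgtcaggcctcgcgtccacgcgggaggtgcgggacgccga
The core lies between 92 and 84 bases before this start site.

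Among 19 genes of the integrated stress response and serine synthesis, 6 were called, all negative: Atf4, Phgdh, Shmt2, Slc7a5, Aldh18a1 and Nupr1. Atf4 is the transcription factor of this response, and Phgdh and Shmt2 make serine and glycine. Shmt2 differed by -0.70 (SE 0.13, adjusted p = 0.000484), with 30 mM wells from 54.5 to 77.8 CPM below controls from 90.8 to 116 CPM. Slc7a5, a transporter of large neutral amino acids, differed by -0.65 (adjusted p = 0.00333), and by -0.425 (adjusted p = 0.14) with the share of counts under the filter as a covariate. That covariate left 3 of the 19 called, and leaving out the 3 wells that stood apart gave 10.

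Of 17 heat shock genes, Serpinh1 and Cryab were called, both negative, and 8 were called without the 3 wells that stood apart. Of 20 glycolysis and hypoxia genes, 3 were called negative, and Egln3, a hypoxia-induced prolyl hydroxylase, differed by -0.70 (SE 0.20, adjusted p = 0.0347), a call lost under 11 of 37 alternatives. Without the 3 wells 8 of the 20 were called, and without 30 mM replicate 2 alone 5 were. With the share of counts under the filter as a covariate, none of the 20 was called by edgeR, and 6 reached an unadjusted p under 0.05. By edgeR, DESeq2 or limma voom, no member was called among 23 genes of cholesterol synthesis (median -0.08), 20 interferon-stimulated genes (median -0.19) or 13 genes of ethanol and aldehyde metabolism (median 0.07). At an unadjusted p under 0.05 these lists held 2, 3 and 2 genes, and without the 3 wells 3, 1 and 2 were called. The cholesterol median was 0.008 with the share of counts under the filter as a covariate, and the median of the ethanol and aldehyde list was -0.047 without the 3 wells. Aldh2, the mitochondrial enzyme that oxidises acetaldehyde, had a difference of -0.001 with a 95% interval from -0.296 to 0.294 (adjusted p = 0.998).

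**Figure D4:**
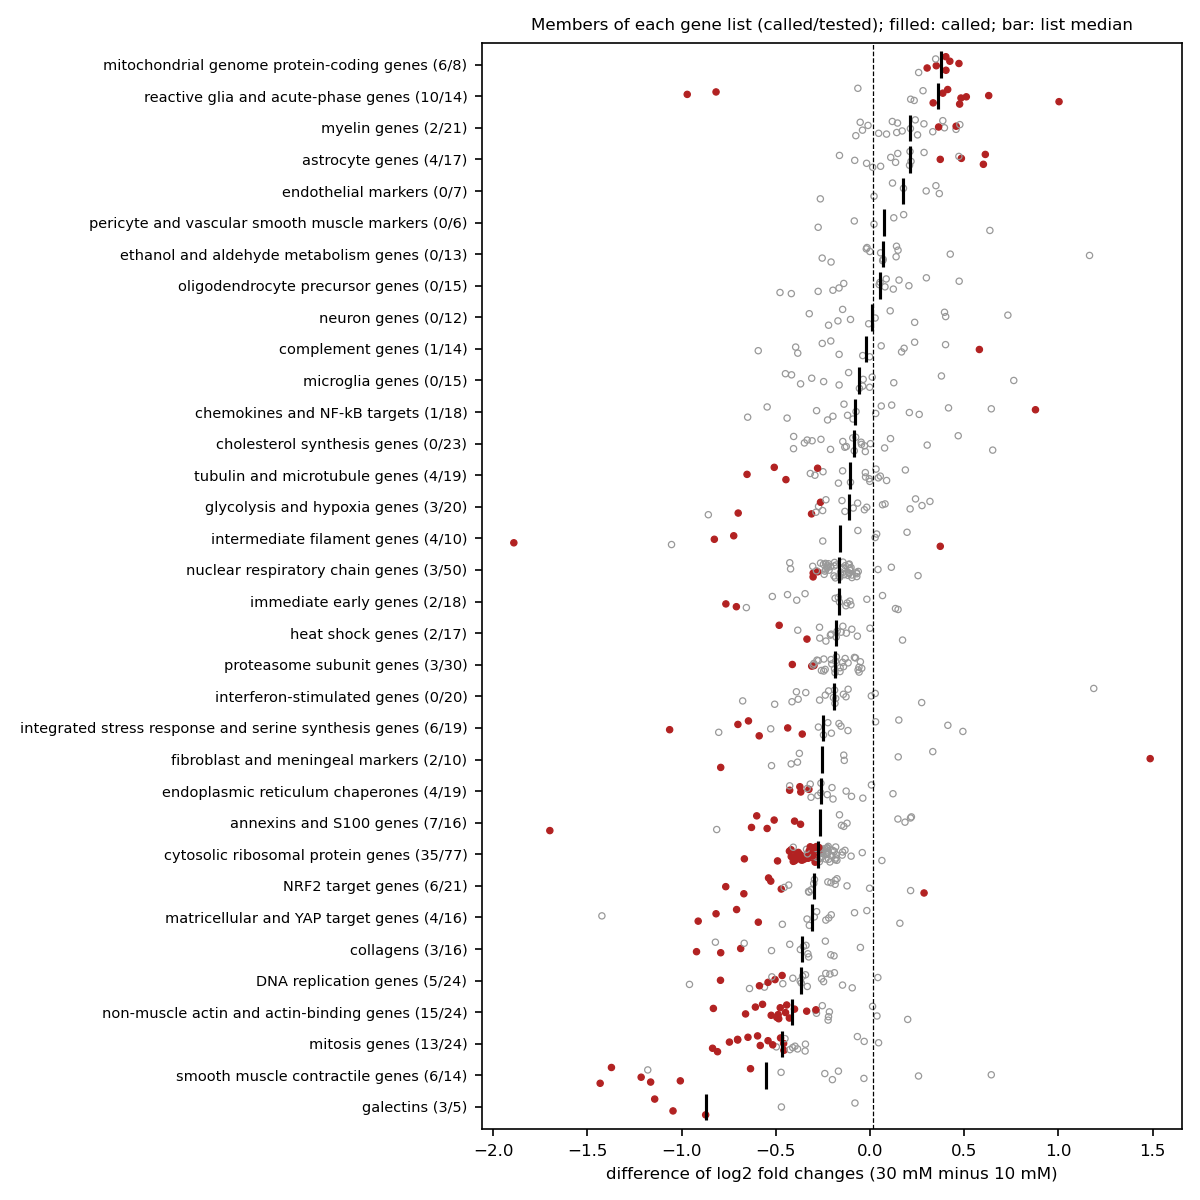
Each row is 1 of the 34 gene lists, with the number called and the number tested in brackets; points are members at their difference of log2 fold changes (30 mM minus 10 mM), filled where called, and black bars are list medians. The dashed line marks the median of all genes tested, 0.02. Galectins, contractile, mitosis and actin-binding genes lie to the left, and mitochondrial genome and reactive glia genes to the right.

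Positive differences were found among genes of glia and of the acute phase. Of 14 reactive glia and acute-phase genes tested, 8 were called positive (Lcn2, Chil1, Serpina3n, Timp1, Osmr, A2m, Ptx3 and Cd44) and 2 negative (Saa3 and Spp1), with a median of 0.36. In experiment 1, Chil1 lay at 248, 321 and 363 CPM in the control wells and at 626, 660 and 772 CPM at 30 mM. In experiment 2, Chil1 lay at 473, 510 and 579 CPM in the control wells and at 543, 553 and 614 CPM at 10 mM. Chil1, a secreted chitinase-like protein of reactive astrocytes, started lower in the controls of experiment 1 and lay above them in every 30 mM well, whereas the wells of experiment 2 overlapped. Its responses were 1.12 at 30 mM and 0.11 at 10 mM, and the difference was 1.00 (SE 0.09, adjusted p = 1.05e-12 by edgeR). Saa3, an acute-phase serum amyloid, was like Spp1 called on the negative side, with a difference of -0.97 (SE 0.12, adjusted p = 5.87e-08). Its 30 mM wells, from 69.1 to 128 CPM, all lay below their controls, from 183 to 256 CPM.

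C3, the central complement component, rose at both doses and more at the higher one. In experiment 1, C3 lay at 464, 569 and 650 CPM in the control wells and at 994, 1140 and 1370 CPM at 30 mM. In experiment 2, C3 lay at 529, 562 and 638 CPM in the control wells and at 733, 770 and 803 CPM at 10 mM. Control levels were alike, and ethanol wells lay above their controls in both experiments. The responses were 1.00 and 0.42 and the difference was 0.58 (SE 0.09, adjusted p = 9.44e-06 by edgeR), the 1 call among 14 complement genes, of which 2 were called without the 3 wells that stood apart. Cxcl5, a chemokine that attracts neutrophils, also rose at both doses, by 1.43 and 0.56, with a difference of 0.88 (SE 0.17, adjusted p = 0.00088), the 1 call among 18 chemokines and NF-kB targets.

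Of 17 astrocyte genes, 4 were called, all positive: Slc1a2, Aqp4, Gja1 and Gfap. In experiment 1, Slc1a2 lay at 348, 396 and 422 CPM in the control wells and at 556, 567 and 736 CPM at 30 mM. In experiment 2, Slc1a2 lay at 452, 506 and 553 CPM in the control wells and at 469, 502 and 532 CPM at 10 mM. Slc1a2, the main glutamate transporter of astrocytes, was above its controls in every 30 mM well, with replicate 2 the highest at 736 CPM, and the 10 mM wells overlapped theirs. Its difference was 0.61 (SE 0.09, adjusted p = 3.21e-06). Aqp4, the water channel of astrocyte end feet, and Gja1, the gap junction protein connexin 43, differed by 0.60 and 0.48 (adjusted p = 1.13e-05 and 0.00287). Gfap, the intermediate filament of astrocytes, differed by 0.37 (SE 0.09, adjusted p = 0.0103), with overlapping wells at both doses, and was not called without a filter on low counts (adjusted p = 0.0852). The list median was 0.21, and its summed level had medians of 9860 and 11400 CPM in experiment 1, without overlap, and of 8700 and 8880 CPM in experiment 2.

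Of 21 myelin genes tested, Mbp and Mobp were called, both positive. Differences were positive for 17 of the 21 and the list median was 0.21, from a median response of 0.42 at 30 mM and 0.18 at 10 mM. In experiment 1, Mbp lay at 2380, 2600 and 2780 CPM in the control wells and at 3060, 3210 and 5270 CPM at 30 mM. In experiment 2, Mbp lay at 2120, 2460 and 2850 CPM in the control wells and at 2510, 2630 and 2730 CPM at 10 mM. Mbp, a structural protein of compact myelin, was above its controls in every 30 mM well, but replicate 1 stood at 5270 CPM and the next at 3290 CPM. The difference was 0.36 (SE 0.11, adjusted p = 0.0363), and without that well it was 0.19 (adjusted p = 0.159). For Mobp, another protein of compact myelin, the difference was 0.46 (adjusted p = 0.0201) and 0.23 (adjusted p = 0.0981) without the same well. Mbp lost its call under 20 of 37 alternatives and Mobp under 5. Without 30 mM replicate 1, no myelin gene was called and the list median was 0.015, with 6 of the 21 at an unadjusted p under 0.05; without the 3 wells that stood apart none was called either and the median was -0.025. With the share of counts under the filter as a covariate, 8 were called and the median was 0.43. Mag, the adhesion protein of the inner myelin surface, rose at both doses, by 0.59 and 0.37, and its difference of 0.21 had a 95% interval from -0.043 to 0.472 (adjusted p = 0.371). The Mag difference was 0.41 and called (adjusted p = 0.037) with the share as a covariate, and -0.005 (adjusted p = 0.977) without the 3 wells. By edgeR, DESeq2 or limma voom, no gene was called among 15 of oligodendrocyte precursors, 15 of microglia, 12 of neurons or 7 of endothelium, and 2, 3, 3 and 0 of them reached an unadjusted p under 0.05. Without the 3 wells 1, 3, 3 and 0 were called.

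Of the 8 largest positive differences among called genes with a mean log2 CPM of at least 4, Chil1 alone belonged to a list. Among all genes named here Gata6, a transcription factor of mesoderm that also marks pericytes and meningeal fibroblasts, had the largest, at a lower level. In experiment 1, Gata6 lay at 3.4, 7.63 and 15.4 CPM in the control wells and at 5.37, 9.2 and 15.2 CPM at 30 mM. In experiment 2, Gata6 lay at 10.9, 13.3 and 15.3 CPM in the control wells and at 3.76, 6.69 and 7.77 CPM at 10 mM. Its wells overlapped at 30 mM and lay all below the controls at 10 mM, at levels a few times the floor. Neither response passed the test, at 0.38 for 30 mM and -1.10 for 10 mM, and the difference was 1.49 (SE 0.39, adjusted p = 0.019). It was 0.98 with the share of counts under the filter as a covariate (adjusted p = 0.279), 1.32 without 30 mM replicate 4 (0.0578) and 1.34 without 30 mM replicate 5 (0.0517).

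Alk, a receptor tyrosine kinase, and Angpt2, a ligand of the endothelial receptor Tek, had differences of 1.12 and 1.03 (adjusted p = 0.00221 and 0.0201). Slc38a11, a member of an amino acid transporter family, and Scube1, a secreted and membrane-bound glycoprotein, differed by 1.02 and 0.98 (adjusted p = 0.028 and 0.0391). Nkain2, which interacts with the sodium pump, differed by 0.90 (adjusted p = 0.0457). Their control medians were lower in experiment 1 than in experiment 2, at 14.1, 11.1, 10.4, 14.7 and 13.6 CPM against 25.9, 21.0, 17.8, 21.8 and 20.6 CPM, and the wells of each overlapped at both doses. The share of counts under the filter was lower in the same controls. Angpt2, Slc38a11, Scube1 and Nkain2 lost their calls under 5, 9, 19 and 23 of 36 alternatives each. Of the 5 genes, Alk alone was still called with that share as a covariate, and the part of the share in these values was not tested. Genes of odorant and vomeronasal receptors, which belong to sensory neurons of the nose, were summed as well: their summed medians were 1610 CPM in the controls of experiment 1, 2430 CPM at 30 mM, 2530 CPM in the controls of experiment 2 and 2500 CPM at 10 mM. This group was chosen after the calls were seen. The sums cover 1736 genes, of which only 133 passed the filter. Among those 133, 3 were called, all positive, against 3.28% called and 0.88% called positive of all genes tested.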

How the data were processed

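The authors deposited raw counts of 3′ tag reads per gene for 24 wells, and the submitters' processing notes name cutadapt 1.18, STAR and the build GRCm39. The counting program, annotation release, use of strand and removal of PCR copies are not given in the sources used here, so overlapping, antisense and near-identical genes are uncertain. Symbols were matched for 52083 of 55359 gene identifiers, and 3276 had none. Genes were filtered with filterByExpr (minimum count 10), scaled by TMM and fitted by edgeR 4.0.16 (R 4.3.3) with 1 mean per group over all 24 wells. The difference was tested as a contrast of the 4 means with Benjamini-Hochberg adjustment over 14655 genes. The biological coefficient of variation was 7.185%. Intervals are 95% with 20 residual degrees of freedom. CPM use the TMM-scaled library size, and floors of 3 counts cover counting error only, since reads carry no stated molecular identifiers.

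No 2 wells of a group agreed within sampling noise over 60 pairs (chi-square over its degrees of freedom was at least 1.073). The fit was tested on simulated counts: with 200 genes changed by 1 on the log2 scale, 71.3% were recovered and 4.79% of calls were false, and with none changed 1 gene was called of 14262.

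Genes were named by a rule: the 8 largest differences in each direction among called genes with a mean log2 CPM of at least 4, at most 3 called members per list by p, up to 6 genes called at both doses with opposite signs, and 4 fixed genes (Mbp, Mag, Gfap and Aldh2). Of the 83 so named, 70 have values in the text. The gene lists and members were chosen with earlier results of these data known. Gene sequences come from the RefSeq promoter table of build GRCm38.p6, and coordinates of the counted genes are not used here. Alternatives covered thresholds, normalizations, filters, DESeq2 1.42.0, limma 3.58.1 (voom), separate fits, covariates, a replicate block and leaving out wells.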

Additional observations from a re-analysis of the deposited data

Results flagged for a closer look

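The levels of the 70 genes described above and 4 measures of each well (total count, genes detected, and the shares of counts under the filter and in mitochondrial genes) were checked in each group of 6 wells, 296 series in all, for a highest or lowest well whose gap to its neighbour, as a part of the range of the group, passed Dixon's 95% critical value. There were 23 such values, all of them gene levels and several in the same well, where chance gives about 1 in 20 series, or 14.8 here. 10 mM replicate 6 stood apart for Acta2 at 38.6 CPM (nearest well 22.8 CPM), Ccn1 at 189 CPM (nearest well 164 CPM), Nes at 452 CPM (nearest well 361 CPM), Mcm6 at 113 CPM (nearest well 89.5 CPM) and Tubb6 at 175 CPM (nearest well 152 CPM). 30 mM replicate 2 stood apart for Nusap1 at 107 CPM (nearest well 84.9 CPM), Slc1a2 at 736 CPM (nearest well 612 CPM) and Aqp4 at 876 CPM (nearest well 715 CPM). 30 mM replicate 1 stood apart for Mobp at 1540 CPM (nearest well 849 CPM), Mbp at 5270 CPM (nearest well 3290 CPM) and Mag at 959 CPM (nearest well 543 CPM). Control replicate 2 of experiment 2 stood apart for Tagln2 at 236 CPM (nearest well 207 CPM) and Itga3 at 21.3 CPM (nearest well 13.7 CPM). Control replicate 6 of experiment 1 stood apart for Krt8 at 191 CPM (nearest well 62 CPM) and Gfap at 1250 CPM (nearest well 1630 CPM). 10 mM replicate 3 stood apart for Cnn2 at 75.8 CPM (nearest well 91.9 CPM). Control replicate 3 of experiment 2 stood apart for Lgals9 at 29 CPM (nearest well 37.4 CPM). 10 mM replicate 1 stood apart for Tnc at 103 CPM (nearest well 81.8 CPM). Control replicate 4 of experiment 2 stood apart for Slc7a5 at 95.7 CPM (nearest well 79.9 CPM). 30 mM replicate 6 stood apart for Angpt2 at 25.8 CPM (nearest well 15.4 CPM). Control replicate 1 of experiment 2 stood apart for Scube1 at 13.2 CPM (nearest well 20.9 CPM). 10 mM replicate 5 stood apart for Aldh2 at 116 CPM (nearest well 95.2 CPM). Control replicate 1 of experiment 1 stood apart for Egln3 at 62 CPM (nearest well 47.2 CPM). The 30 mM replicate 1 well was high for Mobp, Mbp and Mag together, and 10 mM replicate 6 was high for 5 of the genes. What sets these wells apart was not tested.

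The responses of 68 of the genes differed between 30 mM and 10 mM by the interaction test over all 24 wells (edgeR, adjusted p under 0.05), and the difference on the log2 scale stands in brackets after each name, a negative value being a more negative response at 30 mM. Among contractile, actin-binding and adhesion genes these were Acta2 (-1.43), Myl9 (-1.21), Cnn1 (-1.16), Cnn2 (-1.01), Tagln2 (-0.83), Cald1 (-0.49), Actn1 (-0.48), Itga3 (-1.46) and Tgfb1i1 (-1.38). Filament and tubulin genes were Krt8 (-1.89), Nes (-0.72), Lmnb1 (-0.83), Tuba1c (-0.65) and Tubb6 (-0.51). Galectins and annexin or S100 genes were Lgals1 (-0.87), Lgals3 (-1.05), Lgals9 (-1.14), Anxa2 (-0.55), Anxa3 (-0.63) and S100a6 (-0.60). Matrix genes were Spp1 (-0.82), Ccn1 (-0.91), Tnc (-0.71), Col1a1 (-0.79) and Col1a2 (-0.92). Cell cycle genes were Mcm6 (-0.79), Mcm7 (-0.50), Ccna2 (-0.84), Nusap1 (-0.70), Top2a (-0.47) and Cdkn1c (-1.22). Genes of protein synthesis, breakdown and respiration were Rps16 (-0.43), Rpl3 (-0.39), mt-Nd4 (0.42), mt-Cytb (0.40), mt-Nd2 (0.35), Cox7b (-0.30), Ndufa3 (-0.28) and Psmc3 (-0.41). Stress and immediate early genes were Hspa5 (-0.37), Pdia6 (-0.37), Manf (-0.43), Serpinh1 (-0.48), Egr1 (-0.71), Ier2 (-0.76), Txnrd1 (-0.54), Hmox1 (-0.77), Blvrb (-0.67), Shmt2 (-0.70), Slc7a5 (-0.65) and Egln3 (-0.70). Genes of glia and inflammation were Slc1a2 (0.61), Aqp4 (0.60), Gja1 (0.48), Gfap (0.37), Mobp (0.46), Mbp (0.36), Chil1 (1.00), Saa3 (-0.97), C3 (0.58) and Cxcl5 (0.88). The others were Gata6 (1.49), Alk (1.12), Angpt2 (1.03), Slc38a11 (1.02), Scube1 (0.98), Nkain2 (0.90) and Tmem37 (-1.26). Dose, experiment and batch cannot be told apart in any of them.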

How the results depend on the processing

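The count of 481 genes whose responses differed was 854 at an adjusted p under 0.1, 173 under 0.01 and 273 with a difference of at least 0.5 on the log2 scale. It was 307 with the log2 total count as a covariate and 229 with the share of counts under the filter as a covariate. It was 2019 without the 3 wells that stood apart, an alternative added after the data were seen, and between 329 and 759 with 1 well left out. The cause of these shifts was not tested. Other normalizations, filters and tools gave 425 to 500 genes, and fitting the experiments separately gave 666. The share of positive differences, 26.8%, became 52.2% under upper quartile normalization, which moves the median of all genes from 0.018 to 0.091. It was 51.1% with the share as a covariate, 14.2% without a filter, 15.3% by DESeq2 and 37.5% without the 3 wells.

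The 1599 genes changed at 30 mM became 809 at an adjusted p under 0.01, 593 at an absolute log2 value of at least 0.5 and 3368 without the 3 wells. With 1 well left out they lay between 1266 and 1993. The 21 genes changed at 10 mM became 38 at an adjusted p under 0.1, 11 under 0.01 and 5 at an absolute log2 value of at least 0.5. They became 39 by limma voom with a spread per experiment, 89 with the experiments fitted separately, 35 with the share as a covariate, 66 without the 3 wells and 10 to 36 with 1 well left out.

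With a replicate block within each experiment, 461 genes were called, 439 of them among the 481. The labels do not say whether control and ethanol wells with the same number shared anything else. Over 12 such pairs the correlation of deviations ran from -0.168 to 0.232, and 1 pair was over 0.1. Pairs with different numbers ran from -0.29 to 0.267, so these values cannot tell whether equal numbers belong together.

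Of the 68 called genes named above, 46 kept their direction and call under all alternatives that gave an adjusted p, up to 37 per gene, and 22 lost the call under at least 1. None changed direction. With the share as a covariate 16 lost it, and with the total count 8. DESeq2 gave no adjusted p for 7671 genes, 11 of the 68 among them. Aldh2, whose difference is near 0, changed sign under upper quartile normalization (0.072), total count scaling (0.023), separate fits (0.012), the total count covariate (0.082) and the share covariate (0.215), and ranged from -0.104 to 0.058 with 1 well left out. Mag changed sign without the 3 wells (-0.005) and was called with the share as a covariate (0.411). In counts simulated with the depth, number of wells and spread of these data, 71.3% of differences of 1 on the log2 scale were recovered, and 21.6% of differences of 0.5, so many smaller differences were not detectable here. The parts of depth, well number and spread in that were not separated. Shifts shared by many genes of a well were not part of the simulated counts.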
